A study of Mus musculus with 3 samples.

Results

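The 41 genes described here are widely used as genes of myeloid cells, the lineage of monocytes, macrophages, neutrophils and dendritic cells, and they were followed in RNA of sorted mouse CD8+ T cells. They were taken by name: every probe set of the Affymetrix mouse 430 2.0 array whose platform annotation gives exactly 1 symbol, that symbol being among the 41, was collected, and each gene was read by its brightest probe set, taking the mean of the 3 arrays. All 41 were on the array, out of 18193 genes with such a probe set. By class, 9 are classical monocyte genes, 3 are neutrophil genes and 29 are pan-myeloid genes, expressed across several kinds of myeloid cell.

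The study asked what sets apart the NK1.1+ T cells that accumulate when T cells lack the type II receptor for transforming growth factor β. Each of 3 groups had 1 sample, measured on 1 array. The samples called NK1.1+ KO and NK1.1- KO are the NK1.1+ and NK1.1- fractions of CD8+ T cells sorted from Tgfbr2fl/fl x CD4-Cre mice 15 to 17 days old. The control sample is CD8+ T cells of Tgfbr2fl/wt x CD4-Cre littermates, which carry the same Cre and 1 floxed allele. The labels call the control cells NK1.1- in places and total CD8+ cells in another, so their gate is not settled. The Cre is driven by the Cd4 promoter, which acts in T lineage cells, so cells of the myeloid lineage are not its intended target. The number of mice behind each sample is not given in the sources used. Every difference below is between single arrays, with no replicate check, no test and no p-value.

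Myeloid cells arise from progenitors in which the transcription factors PU.1 (Spi1) and the C/EBP family set up the programme, with IRF8 directing monocyte and dendritic cell fates. Their mature forms share machinery for sensing microbes (Toll-like and C-type lectin receptors), for killing them (lysozyme, the phagocyte oxidase, S100 proteins) and for braking these responses (paired inhibitory receptors). T cells and NK cells express some of these genes too, among them Ctss, Ncf1 and Irf8, so no single member marks a myeloid cell on its own.

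Promoter sequences are shown for 4 members, because the pair of lysozyme genes and Cybb were among the members that differed most, and Pilra holds matches to 2 of the motifs searched. They are the 250 bases before the transcription start, written 5′ to 3′ on the gene's strand, from RefSeq (GRCm38.p6). All 4 genes lie on the minus strand. The windows are chr10:117292869-117293118 for Lyz1, chr10:117282273-117282522 for Lyz2, chrX:9469325-9469574 for Cybb and chr5:137836279-137836528 for Pilra. Capitals mark matches, on either strand, to AGGAAGT (ETS family, which includes PU.1), to TTGCNNAA (C/EBP family) and to GAAA followed by any 2 bases and GAAA again (IRF family).
Lyz1: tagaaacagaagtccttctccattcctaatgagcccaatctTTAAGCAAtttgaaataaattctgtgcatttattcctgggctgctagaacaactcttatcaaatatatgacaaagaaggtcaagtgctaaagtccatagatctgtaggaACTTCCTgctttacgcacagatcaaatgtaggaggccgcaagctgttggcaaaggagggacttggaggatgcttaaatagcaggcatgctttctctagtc
Lyz2: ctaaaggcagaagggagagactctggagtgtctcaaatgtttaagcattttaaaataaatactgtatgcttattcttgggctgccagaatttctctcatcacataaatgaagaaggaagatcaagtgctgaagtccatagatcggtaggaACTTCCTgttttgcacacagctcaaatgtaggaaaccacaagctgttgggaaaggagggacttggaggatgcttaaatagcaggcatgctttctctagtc
Cybb: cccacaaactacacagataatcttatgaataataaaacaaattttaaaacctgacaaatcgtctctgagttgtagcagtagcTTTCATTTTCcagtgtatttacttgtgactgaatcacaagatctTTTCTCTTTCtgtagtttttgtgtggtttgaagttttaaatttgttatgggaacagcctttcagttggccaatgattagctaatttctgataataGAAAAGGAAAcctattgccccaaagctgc
Pilra: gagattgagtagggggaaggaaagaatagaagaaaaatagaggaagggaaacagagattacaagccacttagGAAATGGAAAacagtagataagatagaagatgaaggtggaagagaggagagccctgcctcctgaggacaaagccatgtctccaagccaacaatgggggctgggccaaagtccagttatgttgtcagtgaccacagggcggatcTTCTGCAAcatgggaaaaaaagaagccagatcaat

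In both lysozyme windows the complement of AGGAAGT lay 100 to 94 bases before the start, and the Lyz1 window also held TTGCNNAA, read on the opposite strand, 209 to 202 bases before it. The 2 windows had the same base at 152 of 250 positions (60.8%), compared without gaps. The Cybb window held 3 matches to the IRF motif, starting 168, 124 and 29 bases before the start. The Pilra window held 1 IRF match, starting at 178, and 1 C/EBP match, starting at 35. Of the 41 members, 33 had a window in the RefSeq table. AGGAAGT was present in 7 of the 33 (21.2%) and in 7.69% of all 32851 windows. TTGCNNAA was present in 5 (15.2%) and in 9.56% of all windows. The IRF motif was present in 6 (18.2%) and in 2.98% of all windows. Among the 17 members with a window and a higher call for NK1.1+ KO against each other sample, 2 held AGGAAGT (Lyz1 and Lyz2), 3 held TTGCNNAA and 3 held the IRF motif, so most members with AGGAAGT were not among those 17. These matches describe letters in a window, and binding at them was not measured here. No overlap between matches of different motifs occurred in the 4 windows shown.

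Values are probe set intensities on a linear scale. A value was counted as measured at or above 9.66 (3.27 on the log2 scale), the 95th percentile of the values that 145 probe sets gave on the 3 arrays, all of genes not expected in lymphocytes, such as olfactory receptors. Lower values were raised to that level before a difference was taken, and the words "at least" mark such a difference. Calls, higher or lower, needed a 2-fold difference, 1 on the log2 scale. Of the 41 members, 34 were measured in the NK1.1+ KO sample, 21 in the NK1.1- KO sample and 18 in the control sample. Over all 18193 genes the numbers were 10088, 9700 and 9585. 17 members were measured on all 3 arrays, 13 in the NK1.1+ KO sample only, and 6 on none. Of the 34, 5 lay under 17.0, the 95th percentile of negative probe sets in the NK1.1+ KO sample alone. Aif1, Spi1, Csf2ra and Fcgr1, measured in that sample only, were among these.

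The NK1.1+ KO sample differed from the others in ways that touch every comparison below. Its negative probe sets reached 17.0 at their 95th percentile, against 9.29 in the NK1.1- KO sample and 8.31 in the control sample. The spiked hybridisation controls were 2.36-fold brighter on it than in the control sample and 2.52-fold brighter than in the NK1.1- KO sample, while the other 2 arrays differed 1.07-fold. Its ratio of 3′ to 5′ Actb probe sets was 81.9, against 12.3 and 6.02, while its ratio for Gapdh was the lowest, at 10.8 against 26.7 and 17.8. The part of these differences in the results was not tested. Tgfbr2, the targeted gene, read 1808, 1271 and 2634 in the NK1.1+ KO, NK1.1- KO and control samples, and where the deleted exon lies relative to its probes is not known here. The probe set of the NK1.1 gene Klrb1c, which it shares with Klrb1b, read 1618, 52.7 and 7.09 in the same order.

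Between the NK1.1+ KO and control samples, 25 of the 41 members were called higher and 0 lower. Over all 18193 genes 5.75% were called higher and 13.4% lower. Alox5ap, Lyz1, Mpeg1 and Cd300lf had the widest gaps among members measured on both arrays. The median log2 difference was 1.52 over the 41 members and 0.0 over all genes. Among the 17 members measured on both arrays 13 were called higher and 0 lower, where all genes measured on both gave 7.85% higher and 24.0% lower. The value was above that of the control in 38 of 41 members before any level was applied. This count includes values under the level, such as those of Cebpa (4.59 and 4.53). Of the tissue macrophage markers 16 of 16 read higher too, with 7 below the level on every array. The share over all genes is not given here. The median over all probe sets except array controls was 8.99 in the NK1.1+ KO sample and 8.18 in the control. In bulk RNA, a larger number of cells of a type and more RNA per cell cannot be told apart.

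**Figure D1:**
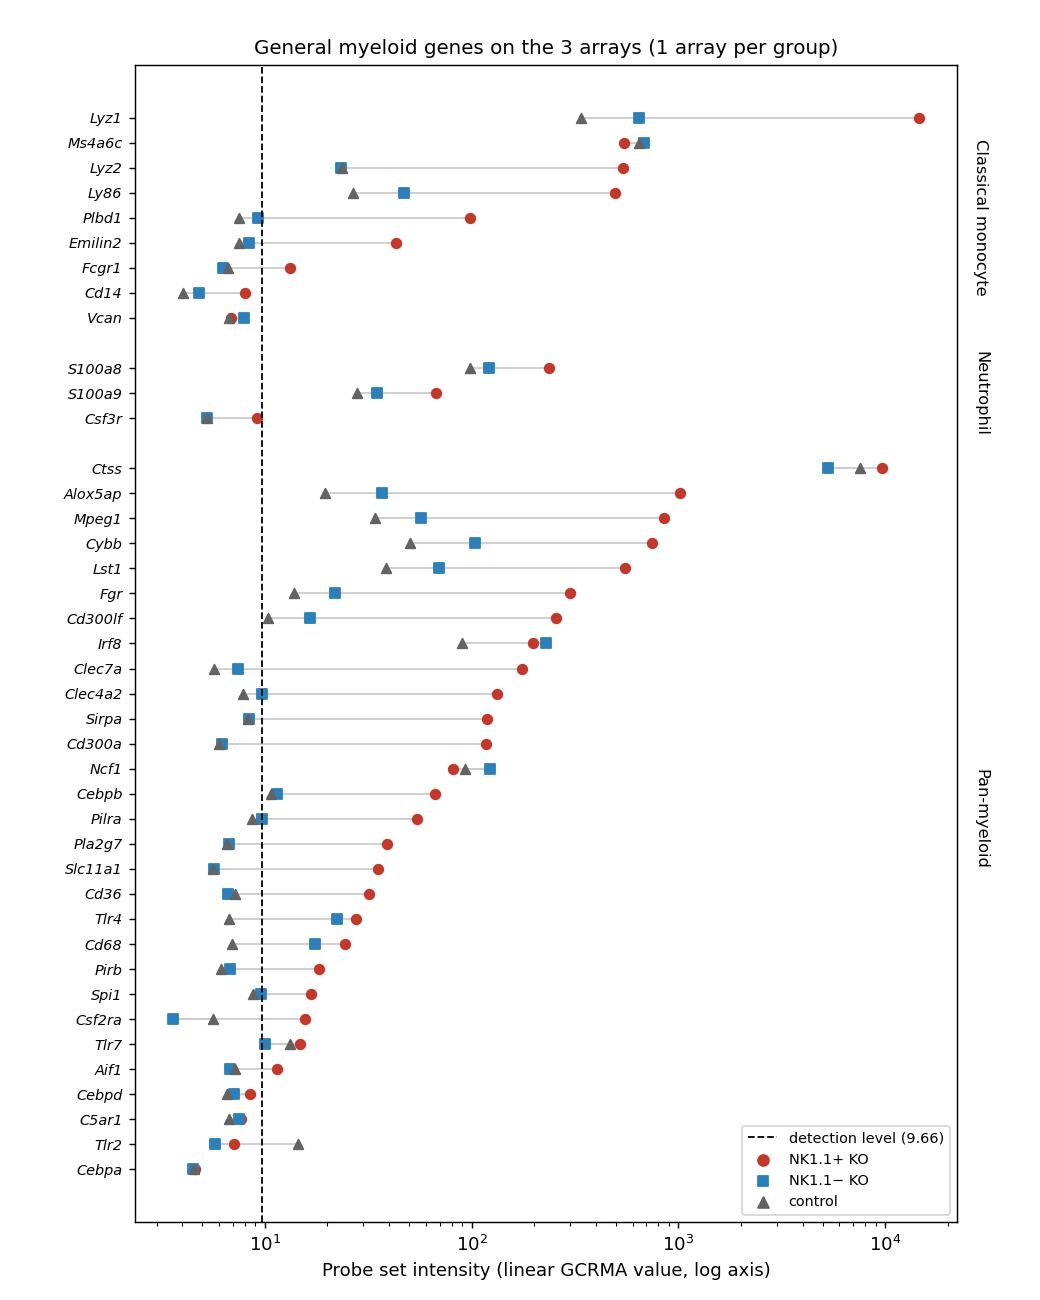
Probe set intensity (log axis) of each of the 41 members on the 3 arrays, 1 point per array, with the detection level of 9.66 marked. The NK1.1+ KO sample gave the highest of the 3 values for 36 members, the NK1.1- KO sample for 4 and the control sample for 1. Values below the level are included in these counts, and the share over all genes is not given here. The NK1.1+ KO sample also read highest for 16 of 16 tissue macrophage markers. It did so for 11 of 13 mast cell, basophil and eosinophil markers and for 2 of 13 T cell markers.

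Between the NK1.1+ KO and NK1.1- KO samples, which share the genotype, 20 of 41 members were called higher and 0 lower. The share of all genes was 3.81% higher and 12.4% lower. The median log2 difference of the members was 0.96, and 0.0 over all genes. Among the 21 members measured on both arrays 12 were called higher, where all genes measured on both gave 4.55% higher and 22.5% lower. The 20 were all among the 25 above, and the other 5 (Tlr4, Cd68, Irf8, S100a8 and S100a9) were called against the control only. This comparison and the one before share the NK1.1+ KO sample, so their counts are not independent.

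Between the NK1.1- KO and control samples, 3 members were called higher (Cybb, Tlr4 and Irf8) and 0 lower, against 4.45% of all genes higher and 3.07% lower. The median log2 difference was 0.0 over the 41 members, 19 of which were below the level in both samples, and 0.0 over all genes. Among the 17 members measured in both, 2 were called higher and the median was 0.66, against 0.0079 over all genes measured in both. Before any level was applied, 32 of 41 members read higher in NK1.1- KO than in the control. Values under the level are included, and the share over all genes is not given here. Cybb was only just past the call, at a log2 difference of 1.05. At a 1.5-fold difference 11 members were higher, against 8.88% of all genes: Cybb, Lst1, Fgr, Cd300lf, Tlr4, Lyz1, Mpeg1, Cd68, Irf8, Ly86 and Alox5ap. All but Tlr4 and Cd68 belong to the 13 members that were measured on all arrays and called higher in the NK1.1+ KO sample than in the control. Both sets were defined against the same control array, so a low control value favours a place in both. The overlap over all genes is not given here. For those 13 the fold against the control ran from 2.21 to 51.6 in the NK1.1+ KO sample. The call that picked them keeps this range at 2-fold or more. Their ratio of the NK1.1- KO to the control sample ran from 0.988 to 2.55.

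**Figure D2:**
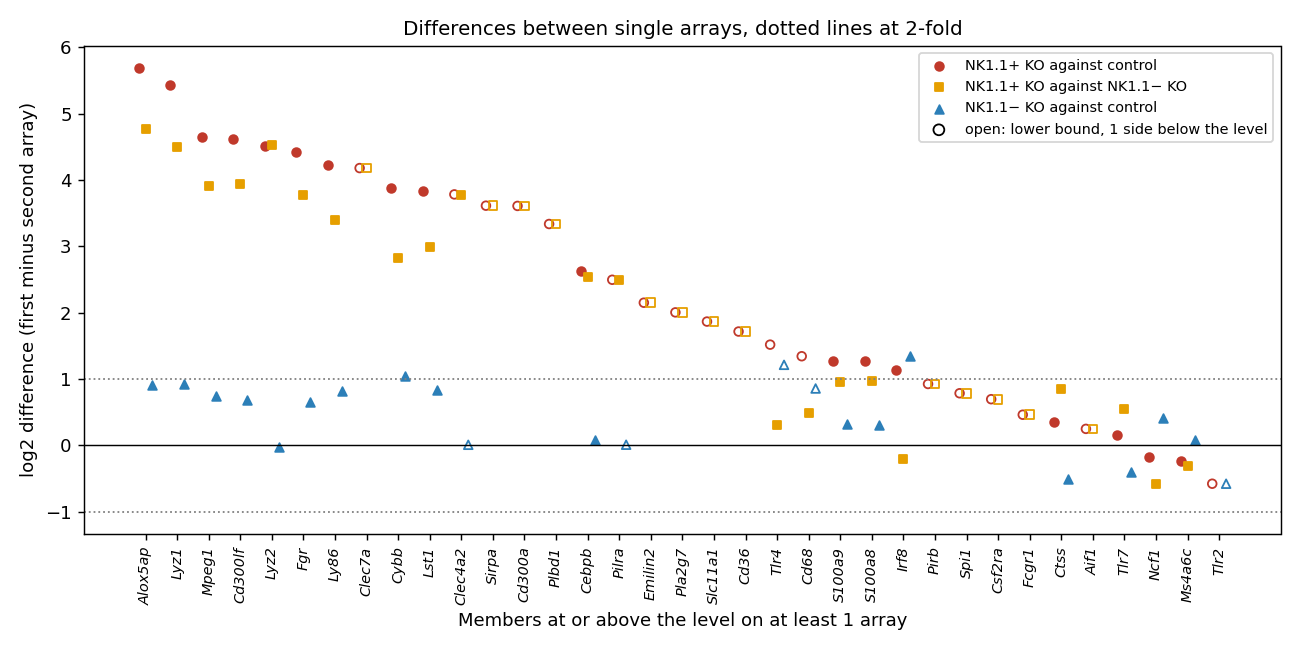
Log2 difference (vertical axis) of each member measured on at least 1 array, for the 3 pairs of arrays, with dotted lines at 2-fold and open symbols for lower bounds. 25 members lie above the upper line for NK1.1+ KO against control and 20 for NK1.1+ KO against NK1.1- KO, while NK1.1- KO against control lies between the lines except for Cybb, Tlr4 and Irf8.

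The 9 classical monocyte genes gave 5 called higher in the NK1.1+ KO sample than in the control, and the same 5 against the NK1.1- KO sample, with a median log2 difference of 2.15 in each. Lyz1 and Lyz2 encode lysozyme, which cleaves bacterial cell walls, and lie side by side on chromosome 10 with 0 protein-coding genes between. Lyz1 read 14618 in the NK1.1+ KO sample, 647 in the NK1.1- KO sample and 339 in the control sample, a 43.1-fold difference from the control. Lyz2 read 541, 23.4 and 23.7, a 22.9-fold difference. Both were far higher in the NK1.1+ KO sample than in either other, and the other arrays were level for Lyz2 and 1.91-fold apart for Lyz1. The Lyz1 value comes from a probe set marked by the manufacturer as able to bind other sequences, a second such probe set read 3757, 166 and 97.4, and the unmarked probe set was below the level on every array at 6.12, 6.02 and 6.01. Signal from the closely related Lyz2 and from Lyz1 cannot be told apart in the marked probe sets.

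Ly86, which encodes MD-1, the partner of the Toll-like receptor relative CD180, read 496, 46.9 and 26.6 in the NK1.1+ KO, NK1.1- KO and control samples, 18.7-fold above the control. Plbd1, a phospholipase B-like protein of granules, read 97.7, 9.29 and 7.47, at least 10.1-fold. Emilin2, an extracellular matrix glycoprotein, read 42.9, 8.40 and 7.53, at least 4.44-fold. Plbd1 and Emilin2 were measured in the NK1.1+ KO sample only. Cd180 itself was below the level on all arrays, at 8.93, 5.16 and 7.74.

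The remaining classical monocyte genes did not reach the call. Cd14, the lipopolysaccharide co-receptor, was below the level on every array at 8.04, 4.79 and 4.05. Vcan, a matrix proteoglycan, was also below it at 6.88, 7.89 and 6.74, and all 8 of its probe sets stayed under the level. Fcgr1, the high-affinity IgG receptor, read 13.3, 6.26 and 6.64 and so lay under the 17.0 reached by negative probe sets in the NK1.1+ KO sample. Ms4a6c read 547, 682 and 645, level across the arrays by the chosen probe set, while its other probe set read 674, 37.0 and 59.0, a log2 difference from the control of 3.51. The direction for Ms4a6c therefore rests on which probe set is read.

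Of 10 further classical monocyte markers on the array, 7 were called higher in the NK1.1+ KO sample than in the control and 0 lower, and their median log2 difference was 2.18. Gda, a guanine deaminase, read 442, 5.79 and 6.43, a log2 difference of at least 5.52. Mgst1, a microsomal glutathione transferase, read 198, 5.64 and 5.03, at least 4.35. Chil3, a chitinase-like secreted protein, read 369, 92.9 and 35.0, a log2 difference of 3.40. For nonclassical monocyte markers 8 of 14 were called higher and 1 lower, with a median of 2.84. Csf1r, the M-CSF receptor, read 7666, 54.5 and 30.5, a log2 difference of 7.97, and Adgre4 read 1685, 12.9 and 11.1, a log2 difference of 7.25. Cx3cr1, which NK and effector T cells also express, read 2049, 568 and 14.5. The part of such cells in the members' differences was not tested.

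The 3 neutrophil genes gave 2 called higher against the control and 0 against the NK1.1- KO sample, with medians of 1.27 and 0.95. S100a8 and S100a9 encode the subunits of calprotectin, which sequesters metal ions, and are neighbours on chromosome 3. S100a8 read 236 in the NK1.1+ KO sample, 121 in the NK1.1- KO sample and 97.9 in the control sample, 2.41-fold above the control and 1.95-fold above the NK1.1- KO sample. S100a9 read 67.6, 34.9 and 27.8, 2.43-fold and 1.94-fold. The pair ran in parallel, and their differences were about the size of the 2.36-fold gap in the hybridisation controls. With those controls set equal neither gene was called. Against the NK1.1- KO sample both were called with quantile normalization, at log2 differences of 1.26 and 1.23, and with medians set equal, at 1.45 and 1.44. Csf3r, the receptor for granulocyte colony-stimulating factor, was below the level on all arrays at 9.21, 5.28 and 5.25.

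Of 16 other neutrophil granule and surface markers, 1 was called higher in the NK1.1+ KO sample than in the control and 1 lower, and their median log2 difference was 0.0. Trem1, an activating receptor, read 26.5, 7.64 and 9.39, and Il1r2, the interleukin-1 decoy receptor, read 8.03, 31.6 and 19.5. Of the 16, 8 were below the level on every array. Their summed values were 282, 220 and 298 in the NK1.1+ KO, NK1.1- KO and control samples and so lay within 1.5-fold of each other. Ngp gave 135, 81.1 and 147 of these, so the sums follow it more than the other genes.

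**Figure D3:**
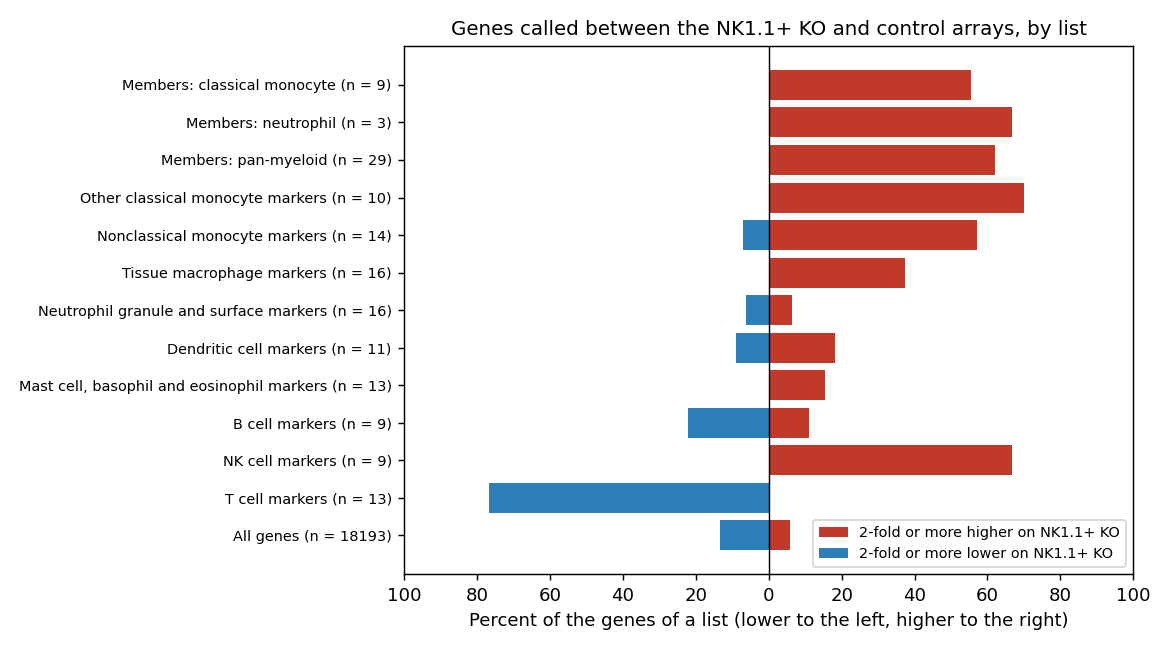
Percent of each list's genes (horizontal axis) called higher, to the right, and lower, to the left, in NK1.1+ KO against control. Of the members, drawn by class, 25 of 41 were called higher, against 5.75% of all genes. Other classical monocyte markers gave 7 of 10, nonclassical monocyte markers 8 of 14 and NK cell markers 6 of 9. Tissue macrophage markers gave 6 of 16, neutrophil markers 1 of 16 and T cell markers 0 of 13, with 10 T cell markers called lower.

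The 29 pan-myeloid genes gave 18 called higher against the control, 15 against the NK1.1- KO sample and 3 between the NK1.1- KO and control samples, with medians of 1.72, 1.72 and 0.0. Among their transcription factors, Cebpb, which drives emergency myelopoiesis and macrophage gene expression, read 66.2, 11.4 and 10.7 in the NK1.1+ KO, NK1.1- KO and control samples, 6.18-fold above the control. Its other probe set was below the level on every array, at 5.30, 5.25 and 5.21. Irf8 read 198, 228 and 89.5, so both KO samples lay above the control, 2.21-fold and 2.55-fold, but with the hybridisation controls set equal the log2 difference of NK1.1+ KO from the control was -0.096. Spi1 read 16.7, 9.59 and 8.74, measured in the NK1.1+ KO sample only and within the range of its negative probe sets. Cebpa and Cebpd were below the level everywhere. Irf8's second probe set read 33.8, 47.7 and 27.1, a log2 difference between NK1.1+ KO and control of 0.32, short of the call.

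In a list of 15 myeloid transcription factors that includes these, 6 were called higher against the control and 2 lower. Klf4, a factor required for monocyte development, read 1301, 23.3 and 15.2, a log2 difference of 6.42. Zeb2, which acts in myeloid cells as well as in terminal effector T and NK cells, read 627, 58.8 and 7.38, at least 6.02.

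None of the 4 growth factor, Fc and complement receptors among the members (Csf2ra, Csf3r, Fcgr1 and C5ar1) was called in any comparison. Csf2ra, the binding chain of the receptor for granulocyte-macrophage colony-stimulating factor, read 15.7, 3.58 and 5.61, under the 17.0 of the negative probe sets in the NK1.1+ KO sample. C5ar1, the C5a receptor, was below the level at 7.69, 7.54 and 6.73. Partner chains of these receptors did differ: Csf2rb, the shared signalling chain, read 173, 7.16 and 6.0, a log2 difference of at least 4.16, and Fcer1g, the signalling chain of Fcgr1 and other Fc receptors, read 261, 5.76 and 6.17, at least 4.75. Of 6 Fc receptor genes 4 were called higher against the control, among them Fcgr4 at 386, 5.63 and 5.59.

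Of the 6 inhibitory receptors, 5 were called higher in the NK1.1+ KO sample than on each of the other arrays. Cd300lf, which binds lipids on dying cells, read 255, 16.6 and 10.4, 24.6-fold above the control. Clec4a2, a C-type lectin with an inhibitory motif, read 133, 9.72 and 7.87, at least 13.8-fold. Cd300a, a relative of Cd300lf, read 118, 6.21 and 6.03, at least 12.2-fold. By the probe set used, all 3 were far above the level in the NK1.1+ KO sample. In the other samples Cd300a was below it, Clec4a2 was at or below it and Cd300lf was less than 2-fold above it. A second probe set was below the level on every array for Cd300a (7.89, 7.78 and 7.71) and for Clec4a2 (5.96, 5.88 and 5.80).

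Sirpa, the receptor for the "do not eat me" protein CD47, read 118, 8.42 and 8.33, at least 12.3-fold. Its other measured probe set read 13.8, 5.95 and 6.29 and was not called. Pilra, a receptor for sialylated glycoproteins, read 54.5, 9.73 and 8.66, at least 5.65-fold. Pirb, which binds MHC class I, read 18.4, 6.78 and 6.16, at least 1.90-fold and short of the call, while a probe set it shares with other Pir genes read 70.9, 16.9 and 12.8. The activating relatives Sirpb1a (332, 6.44 and 5.81) and Pilrb1 (246, 5.44 and 5.40) were high on the same array, with log2 differences from the control of at least 5.10 and at least 4.67. In the wider list of 18 inhibitory receptors, their activating relatives and phosphatases, 9 were called higher and 1 lower, the latter being the phosphatase Ptpn6 at 158, 291 and 675.

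Of the 6 pattern recognition genes, which include Cd14 and Ly86 above, 3 were called higher against the control. Clec7a, the β-glucan receptor dectin-1, read 175, 7.39 and 5.65, at least 18.1-fold. Tlr4, the lipopolysaccharide receptor, read 27.7, 22.4 and 6.74, high on both KO arrays and at least 2.87-fold and at least 2.32-fold above the control. Its 3 other probe sets were below the level on every array, and with the mean of its probe sets neither call held, at log2 differences of 0.38 and 0.30. Tlr2, which senses bacterial lipoproteins, was measured in the control sample alone, at 7.12, 5.77 and 14.4. Tlr7, the sensor of single-stranded RNA, read 14.7, 10.1 and 13.2, with no call in any comparison. Of these 4 receptors, Clec7a alone stood far above the level in the NK1.1+ KO sample and below it on both others. Ly96, the co-receptor of Tlr4, read 8.05, 11.6 and 6.47, and the adaptor Myd88 read 246, 276 and 219. Of 25 Toll-like receptor pathway genes 4 were called higher against the control and 2 lower, Tlr1 the furthest down at 137, 304 and 787.

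Among oxidase and antimicrobial genes, Cybb, the catalytic subunit of the phagocyte oxidase, read 741 in the NK1.1+ KO sample, 104 in the NK1.1- KO sample and 50.5 in the control sample, 14.7-fold above the control and 7.11-fold above the NK1.1- KO sample. A second Cybb probe set read 89.1, 13.1 and 10.5. Mpeg1, a pore-forming protein of phagocyte vesicles, read 856, 57.0 and 34.2, 25.0-fold above the control. Both genes were highest in the NK1.1+ KO sample, and the other samples were much closer to each other. Slc11a1, a metal transporter of the phagosome, read 35.2, 5.65 and 5.63, at least 3.65-fold.

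Ncf1, the cytosolic organiser of the oxidase, read 81.7, 123 and 92.5, with no call in any comparison. The partner subunits Cyba (1136, 2246 and 2095) and Ncf4 (125, 178 and 156) were not called either. Of the 7 genes of the oxidase complex list 1, Cybb, was called higher against the control, and 3 were called lower: Hvcn1, Rac2 and Rac1. Rac2 read 539, 1124 and 1362.

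Of the lysosomal members, Ctss, a protease that trims the invariant chain of MHC class II, read 9587, 5289 and 7511, within 2-fold across the arrays. Cd68, a lysosomal membrane glycoprotein, read 24.5, 17.5 and 6.91, at least 2.54-fold above the control in the NK1.1+ KO sample. With the hybridisation controls set equal, Tlr4 and Cd68 were no longer called in NK1.1+ KO against control, while in NK1.1- KO against control Tlr4 kept its call and Cd68 gained one at a log2 difference of 1.08. Of 15 lysosomal proteases and membrane proteins, 2 were called higher and 3 lower against the control, the other higher gene being Ctsh at 141, 32.7 and 45.0.

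Of the signalling and cytoskeletal members, Fgr, a Src family kinase, read 298, 21.9 and 13.8, 21.6-fold above the control, while its other probe set read 11.1, 6.33 and 5.65. Lst1, a small transmembrane adaptor, read 554, 69.3 and 38.7, 14.3-fold. Aif1, the actin-binding protein IBA1, lies next to Lst1 on chromosome 17 and read 11.5, 6.80 and 7.15, inside the range of the negative probe sets of its array. Lst1 was called and Aif1 was not, and levels of different probe sets cannot be set against each other.

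All 3 lipid genes were called higher in the NK1.1+ KO sample than in the control and the NK1.1- KO samples. Alox5ap, which presents arachidonate to 5-lipoxygenase, read 1014, 37.1 and 19.7, 51.6-fold above the control and 27.4-fold above the NK1.1- KO sample. Pla2g7, the platelet-activating factor hydrolase, read 38.8, 6.71 and 6.55, at least 4.02-fold, and Cd36, a scavenger receptor, read 31.8, 6.64 and 7.19, at least 3.29-fold. Alox5, the enzyme that Alox5ap serves, was below the level on all arrays at 9.29, 5.15 and 9.24, and Lta4h, further along the leukotriene pathway, read 258, 718 and 966.

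Probe sets of 1 gene did not always give the same call. Those below the level on both arrays of a comparison, such as the second ones of Cd300a, Clec4a2 and Cebpb, are left out of the counts here. Of 10 members with at least 2 measured probe sets, 4 had both called and uncalled ones against the control (Ms4a6c, Fgr, Sirpa and Irf8), and 3 of 10 did against the NK1.1- KO sample (Ms4a6c, Fgr and Sirpa). Between NK1.1- KO and control 2 of 6 did, Cybb and Irf8, whose second probe sets gave log2 differences of 0.33 and 0.81.

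**Figure D4:**
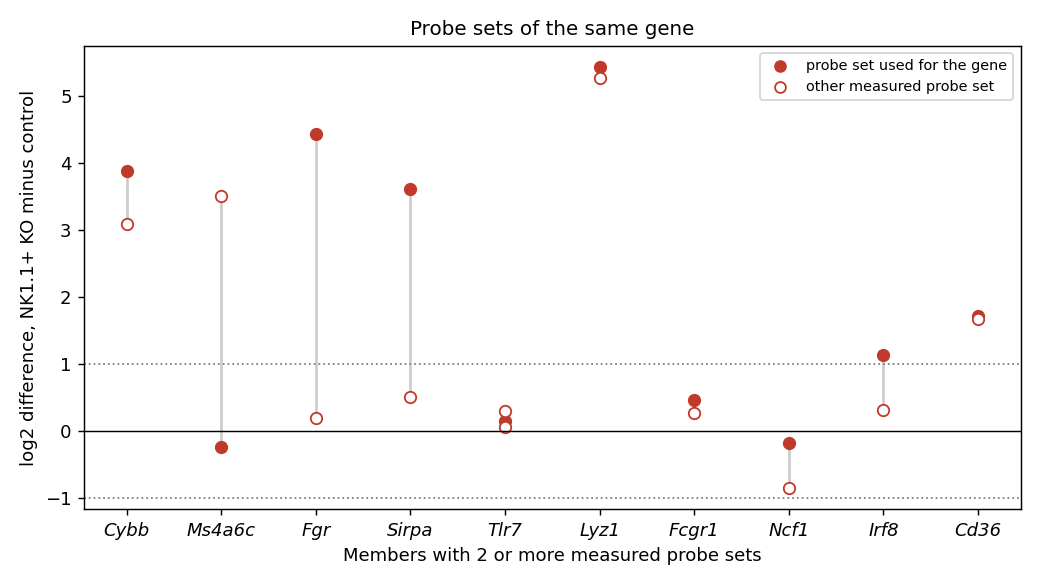
Log2 difference between the NK1.1+ KO and control (vertical axis) for each measured probe set of the 10 members with several, filled where the probe set stands for the gene. Ms4a6c spans -0.24 to 3.51, Fgr 0.20 to 4.43, Sirpa 0.51 to 3.61 and Irf8 0.32 to 1.14.

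Markers of other cells were counted between the NK1.1+ KO and control samples in the same way. Over all genes 5.75% were called higher and 13.4% lower, and among genes measured on both arrays 7.85% and 24.0%. In lists this small, a count of 1 or 2 genes is not read as a change. T cell markers were lower in the NK1.1+ KO sample than in the control in 10 of 13 genes and higher in 0, with a median log2 difference of -1.70. Their summed values were 18562, 22577 and 27522 in the NK1.1+ KO, NK1.1- KO and control samples. Bcl11b, which was not called, gave 10494, 7341 and 7846 of these, so the sums follow it more than the other genes. All 13 were measured on each array. NK cell markers were called higher in 6 of 9 genes, with sums of 15825, 7942 and 4445, of which Klrd1 gave 11874, 5403 and 3687. Tissue macrophage markers were higher in 6 of 16, with sums of 447, 115 and 112. Of the 16, 7 were below the level on every array. Among the 6, C1qb read 163, 9.29 and 9.14, by a probe set marked as able to bind other sequences. C1qa was below the level on every array, at 9.05, 7.22 and 6.91. C1qc read 10.4, 4.65 and 4.39, under the 17.0 of the negative probe sets in the NK1.1+ KO sample. Of the dendritic cell markers 2 of 11 were higher (H2-Aa and Cd74) and 1 lower (Itgae), with sums of 2189, 883 and 1493. H2-Aa gave 1517, 289 and 325 of these, and Itgae gave 21.4, 44.6 and 444. The level was not reached on any array by 5 of the 11, so the sums rest on the other markers. Mast cell, basophil and eosinophil markers gave 2 of 13 higher with sums of 154, 143 and 100.2, and B cell markers 1 of 9 higher and 2 lower with sums of 359, 513 and 422. Erythroid and platelet markers gave 0 of 6 in either direction, with sums of 72.7, 42.0 and 90.3. Housekeeping genes were lower in 3 of 8 and higher in 0. The part of these cells in the members' differences was not tested.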

How the data were processed

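The deposited table gives probe set intensity on a linear scale for 3 arrays, 1 per group. The submitters' processing notes name GCRMA 1.1.3, which subtracts background, normalizes arrays and summarises probes; the sources used here do not give its settings. Of 45101 probe sets, 34945 had exactly 1 symbol in GEO's platform annotation, 932 several and 9160 none, and 64 were array controls. Only single-symbol probe sets were used, 73 for the 41 members. All 41 Entrez identifiers matched the RefSeq table (GRCm38.p6). Differences are of log2 intensity computed from the deposited values after raising them to the level of 9.66, and a call needed 2-fold. With 1 array per group no test was possible, and precision is limited by the number of arrays. Besides the members, at most the 4 genes of each list with the widest difference of NK1.1+ KO against control were named, with partner genes of a member, Tgfbr2 and Klrb1c. Ptpn6, C1qa, C1qc, Bcl11b, Klrd1 and Ngp lie outside that rule and were chosen after their values were seen. The members and lists were chosen with earlier results of these data known. Some genes stand in several lists. The call rule was tested on simulated data. Promoter motifs were searched in the 250 bases before the start; the 50 after it were not used. Python 3.11.15, numpy 2.4.6, pandas 2.3.3 and matplotlib 3.10.9 were used.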

Additional observations from a re-analysis of the deposited data

How the results depend on the processing

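The number of members called higher in the NK1.1+ KO sample than in the control ran from 15 to 28 over the alternatives, and against the NK1.1- KO sample from 13 to 26. Of the 25 members, 11 kept the call under every alternative, and of the 20, 11 did. A member without a value under an alternative was counted as losing the call, which is the only loss of Lst1. With a level at all values' 75th percentile, 15 and 13 members were called higher, and 1 between NK1.1- KO and control. The median log2 difference from the control was 0.35 with the level at the 99th percentile of negative probe sets, 0.0 at that 75th percentile, 0.84 with an offset of 32 and 0.41 with hybridisation controls set equal. Against the NK1.1- KO sample it was 1.13 with the mean of all probe sets, 1.26 with quantile normalization and 1.45 with the median of measured genes set equal. With hybridisation controls set equal, 2 members were called lower against the control and 4 against the NK1.1- KO sample, and Irf8 turned to -0.096 against the control; S100a8, S100a9, Tlr4, Cd68, Slc11a1, Cd36 and Pla2g7 lost their call there. Tlr4 turned to -1.03 against the NK1.1- KO sample under the same scaling, and with the mean of probe sets Ms4a6c turned to 1.64 and 1.94 against the control and NK1.1- KO. At 1.5-fold 1 member was lower against the NK1.1- KO sample. Between NK1.1- KO and control the count of 3 became 1 with the offset, 1 with the mean of probe sets, 6 with hybridisation controls, 11 at 1.5-fold and 0 at 3-fold, and 0 of the 3 kept the call throughout. Without suffixed probe sets Lyz1 was not called, and Lst1, S100a8 and Pla2g7 gave no value. Setting medians equal moved log2 differences from the control by 0.44, quantile normalization by 0.17 and hybridisation controls by -1.24. The level at the NK1.1+ KO array's own 95th percentile, chosen after seeing the data, gave 22, 19 and 2. No paired analysis was possible because each group has 1 array, and no array could be left out.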
